A study of Mus musculus with 27 samples.

Results

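The genes described here are 35 members of the ER stress and integrated stress response, taken by gene name from a table of 39971 genes. They were picked by name, with earlier results of these data known. They fall into the secretory branches of the unfolded protein response (26 genes: the sensors and factors around Xbp1, Ire1 and Atf6, the chaperones and folding enzymes of the endoplasmic reticulum, and its degradation machinery) and the Atf4 branch (9 genes). All 35 had an FPKM (fragments scaled to gene length and sequencing depth) of at least 1 in at least 5 libraries, and so were among the 15080 genes tested.

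RNA was sequenced from the colon of 27 wild-type BALB/c mice in 5 groups. NC were mice without the tumor induction that received saline by injection and by gavage (n = 6). The other groups had received azoxymethane, a carcinogen, and dextran sulfate sodium, an irritant of the colon, and carried inflammation-associated neoplasia. Of these, CAC received saline by both routes (n = 5), CAC_F received injected FOLFOX, a combination chemotherapy, with saline by gavage (n = 5), CAC_FP received FOLFOX and a complex of probiotics by gavage (n = 5), and CAC_FPL received FOLFOX, the probiotics and loperamide, an antidiarrheal opioid (n = 6). Collection followed 1 week into the chemotherapy. The labels call the NC tissue colon and that of the other groups tumor-bearing colon segment, so the segment sampled and the AOM/DSS treatment cannot be told apart in any comparison with NC. They also give no group that received probiotics or loperamide without FOLFOX.

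Proteins that are secreted or inserted into membranes fold in the endoplasmic reticulum. When folding falls behind, the sensors Ire1 (genes Ern1 and Ern2) and Atf6 raise chaperones and folding enzymes. They also raise the components that pull misfolded proteins out for degradation. Ire1 acts in this largely through the transcription factor Xbp1. A separate sensor, PERK (gene Eif2ak3), phosphorylates the initiation factor eIF2, which slows translation in general and favours translation of Atf4. Kinases that sense lack of amino acids, viral RNA or lack of heme act on the same factor, so the Atf4 branch, called the integrated stress response, can also act without misfolded protein. Mucus-producing goblet cells and antibody-producing plasma cells carry a large endoplasmic reticulum, and both are found in the colon.

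Libraries held 56687812 to 79709845 counts. Markers of absorptive colonocytes were detected in every group, with none of the 9 at 0. Levels below are CPM (counts scaled to TMM-adjusted library size), and a call is an adjusted p below 0.05 in edgeR's quasi-likelihood test with Benjamini-Hochberg adjustment over all genes tested. CAC library 2 and CAC_FPL library 3 stood apart in markers of the distal colon, whose summed level was 143 and 394 CPM there against at most 44.3 CPM in the other libraries. Coordinates of genes are those of the deposited table, for which no genome build is named. Nothing in the labels says more of the replicates than that they are separately labelled mice, so the p-values measure the spread between these samples.

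Both branches are known for short promoter elements, and the promoters below are shown as examples of members whose promoter holds one of these elements, called or not. RefSeq promoters (GRCm38.p6) matched 30 of the 35 members, with 32 promoters, and the 250 bases before each start were searched on both strands. The ER stress element (CCAAT, then 9 bases of any kind, then CCACG) was found in 9 of these 32 promoters (28.1%) and in 37 of all 32851 promoters (0.113%), those 9 among them. Its carriers were Calr, Canx, Creld2, Derl3, Dnajc3, Hsp90b1, Hspa5, Pdia6 and Syvn1, all in the secretory branches. The related ERSE-II element (ATTGG, 1 base, CCACG) was found in Herpud1 and in 0.0304% of all promoters. The core of the amino acid response element to which Atf4 binds (TGATGNAA) was found in Asns, Chac1 and Herpud1, 9.38% of the member promoters against 3.45% of all. The UPR element TGACGTGG was in 0 of the member promoters and in 0.563% of all. In the sequences, 5′ to 3′ towards the gene, capitals mark the fixed letters of the ER stress and ERSE-II elements and the whole amino acid response core, on either strand.
Hspa5, chr2:34771840-34772089, + strand: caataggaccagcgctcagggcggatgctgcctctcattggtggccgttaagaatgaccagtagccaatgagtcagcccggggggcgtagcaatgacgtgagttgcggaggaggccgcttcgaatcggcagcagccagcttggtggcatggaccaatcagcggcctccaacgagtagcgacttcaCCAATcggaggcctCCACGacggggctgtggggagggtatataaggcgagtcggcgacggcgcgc
Hsp90b1, chr10:86705445-86705694, - strand: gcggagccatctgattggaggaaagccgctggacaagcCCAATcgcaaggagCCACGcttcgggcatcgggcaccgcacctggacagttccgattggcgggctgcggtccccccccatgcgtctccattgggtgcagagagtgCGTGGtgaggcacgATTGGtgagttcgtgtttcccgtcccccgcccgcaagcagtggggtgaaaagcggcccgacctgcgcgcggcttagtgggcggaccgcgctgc
Syvn1, chr19:6046326-6046575, + strand: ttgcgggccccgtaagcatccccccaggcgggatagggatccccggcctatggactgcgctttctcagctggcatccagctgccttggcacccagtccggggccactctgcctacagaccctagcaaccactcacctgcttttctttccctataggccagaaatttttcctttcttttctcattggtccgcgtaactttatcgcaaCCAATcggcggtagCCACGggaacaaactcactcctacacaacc
Derl3, chr10:75893148-75893397, + strand: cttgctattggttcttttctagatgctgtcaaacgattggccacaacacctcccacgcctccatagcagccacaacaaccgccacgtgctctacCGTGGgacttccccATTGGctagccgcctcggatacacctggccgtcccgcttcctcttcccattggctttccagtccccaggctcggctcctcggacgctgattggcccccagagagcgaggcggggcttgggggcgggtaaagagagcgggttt
Creld2, chr15:88819396-88819645, + strand: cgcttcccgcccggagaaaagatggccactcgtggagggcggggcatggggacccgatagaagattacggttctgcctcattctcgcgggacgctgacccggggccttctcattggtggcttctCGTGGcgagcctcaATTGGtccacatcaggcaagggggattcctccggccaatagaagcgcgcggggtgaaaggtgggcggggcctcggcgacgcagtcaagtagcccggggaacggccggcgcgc
Herpud1, chr8:94386179-94386428, + strand: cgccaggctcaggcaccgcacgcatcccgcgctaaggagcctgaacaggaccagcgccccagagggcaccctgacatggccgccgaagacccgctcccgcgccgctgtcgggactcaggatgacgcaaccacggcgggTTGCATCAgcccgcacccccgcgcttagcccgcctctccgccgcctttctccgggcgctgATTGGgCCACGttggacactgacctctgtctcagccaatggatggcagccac
Asns, chr6:7693210-7693459, - strand: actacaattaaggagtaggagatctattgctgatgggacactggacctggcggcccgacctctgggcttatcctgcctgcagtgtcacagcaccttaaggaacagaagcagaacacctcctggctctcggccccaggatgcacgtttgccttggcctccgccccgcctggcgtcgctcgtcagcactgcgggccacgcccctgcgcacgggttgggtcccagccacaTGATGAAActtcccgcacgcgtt
Chac1, chr2:119350992-119351241, + strand: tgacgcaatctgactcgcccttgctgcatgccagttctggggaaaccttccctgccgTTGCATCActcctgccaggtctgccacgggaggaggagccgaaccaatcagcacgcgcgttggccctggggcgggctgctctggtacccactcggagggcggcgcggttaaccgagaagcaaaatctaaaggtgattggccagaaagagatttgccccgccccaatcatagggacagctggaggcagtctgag
Hsp90b1 carried 2 ER stress elements, one on each strand. In Herpud1 the first match is the amino acid response core and the second the ERSE-II element. A match describes the letters only and does not show that a factor binds there.

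In tumor-bearing colon without chemotherapy, no member was called against untreated colon, but nearly all lay lower. CAC minus NC gave 0 of 26 calls in the secretory branches and 0 of 9 in the Atf4 branch by edgeR, beside 0% of all genes called higher and 0.00663% called lower. DESeq2 and limma, with voom or on log2(FPKM + 1), also called 0 members. At an unadjusted p below 0.05 there were 13 secretory members and 1 of the Atf4 branch, and 1164 of the 15080 genes tested. Of the 35 log2 fold changes, 34 were negative, with a median of -0.26 against 0.01 over all genes tested. Ern1 was the positive one, at 0.13 ± 0.16 (SE). The mean over the secretory members of log2 CPM minus the NC mean ran from -0.30 to 0.25 in the NC libraries. CAC libraries 1, 2 and 3 (-0.17, -0.27 and 0.05) lay inside that range, and CAC libraries 4 and 5 (-0.46 and -0.70) lay below it.

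The lowest unadjusted p-values in this comparison belonged to chaperones. Hyou1, an exchange factor and chaperone that works with BiP, ran from 228 to 484 CPM in NC (median 366) and stood at 216, 256, 324, 172 and 147 CPM in CAC, a log2 fold change of -0.73 ± 0.21 (SE, adjusted p = 0.459, edgeR). Libraries 2 and 3 lay inside the NC range. Markers of some epithelial cells lay lower as well, none of them called: 12 of 13 goblet cell markers had negative log2 fold changes (median -0.41), and so had all 9 markers of absorptive colonocytes (median -0.59). All 3 tuft cell markers tested were negative too, but 5 of 6 enteroendocrine markers were positive (median 0.52). The part of these cells in the members' values was not tested. With the goblet list as a covariate the secretory median was -0.21 in place of -0.24. The count of calls was 0 without the covariate and could not fall. Hspa5, which encodes BiP, the main ER chaperone and the regulator that holds the sensors inactive, stood between 1091 and 2182 CPM in NC (median 1712). In CAC it stood at 1081, 1119, 1581, 906 and 661 CPM. The groups overlapped, with CAC libraries 2 and 3 inside the NC range and the other 3 below it, and the log2 fold change came to -0.64 ± 0.21 (SE, adjusted p = 0.489, edgeR). In bulk tissue, fewer cells of a type and less RNA per cell cannot be told apart, here or in any comparison that follows.

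**Figure D1:**
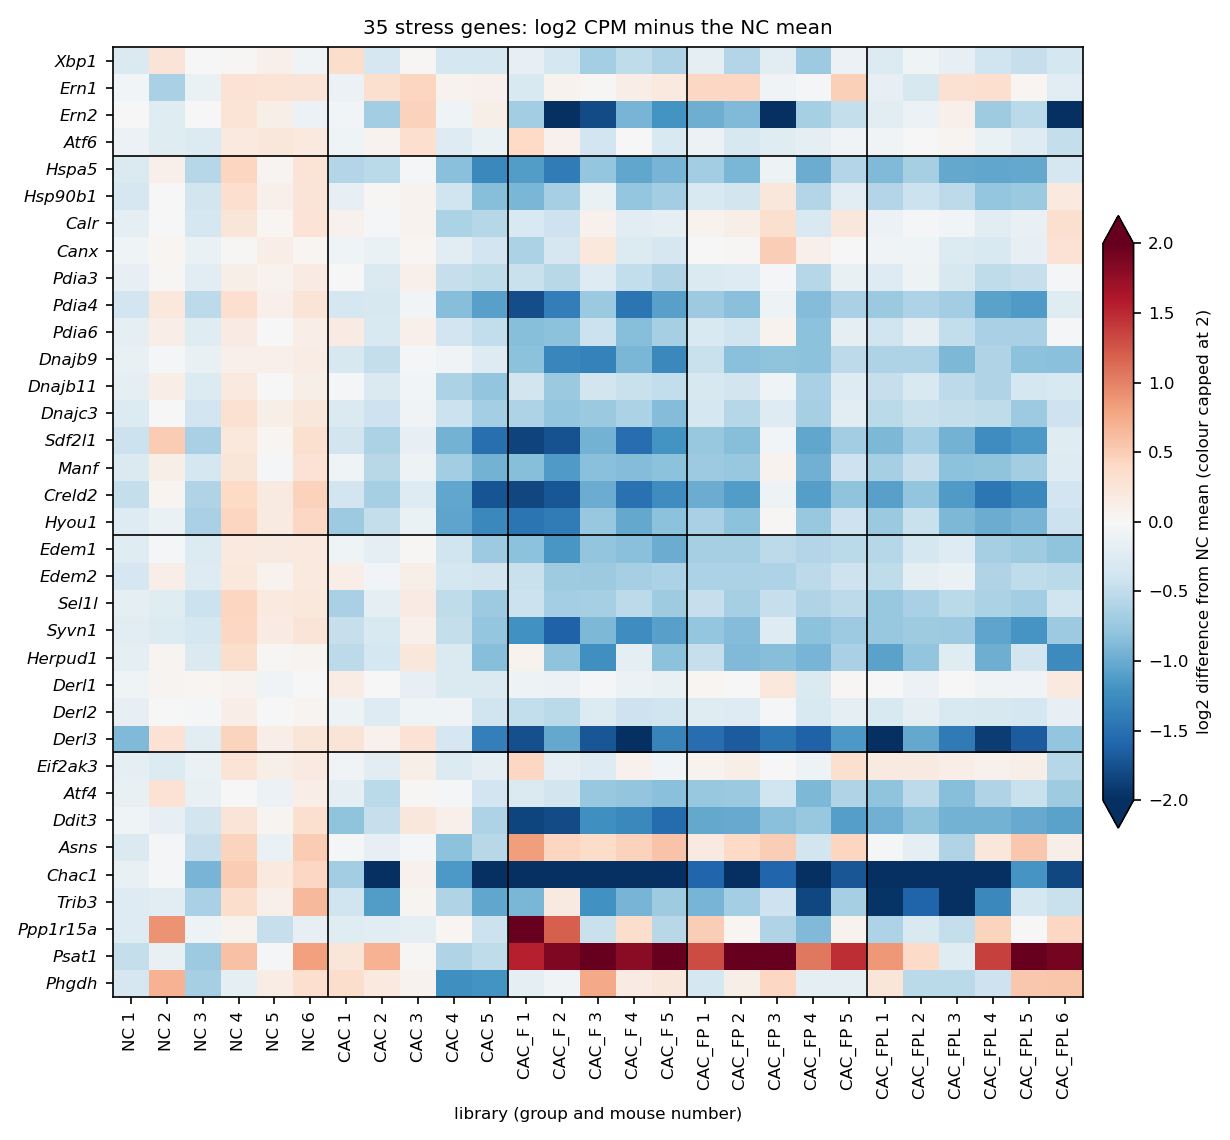
Each cell is 1 gene (rows, in the order sensors and factors, chaperones and folding enzymes, degradation genes, Atf4 branch) in 1 library (columns, by group), coloured by log2 CPM minus the mean of the NC libraries. The chaperone and degradation rows are blue in all 5 CAC_F libraries apart from cells of Calr, Canx and Herpud1, while Psat1 and Asns are red in all 5.

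Under FOLFOX every called secretory member was lower, while the calls of the Atf4 branch went both ways. In CAC_F minus CAC, 13 of the 26 secretory members fell and the other 13 were not called (edgeR). All 14 with an unadjusted p below 0.05 were lower, beside 7268 of the 15080 genes tested with such a p in either direction. Over all genes tested, 19% were called higher and 20.2% lower, so that 48.5% of all calls were higher; with limma on log2(FPKM + 1) that share was 59.1% and with the goblet covariate described below 58.5%. The median log2 fold change of the secretory members was -0.38 and that of all genes -0.03. In the Atf4 branch 3 of 9 members rose (Psat1, Asns, Ppp1r15a) and 3 fell (Ddit3, Atf4, Chac1), with a median of 0.14. The difference between the branches was not tested, since the members are not replicates. Without CAC_F library 2 the secretory count was 8, and without CAC_F libraries 1 and 2 it was 7.

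Among the 14 chaperones and folding enzymes 7 fell (Dnajb9, Pdia6, Pdia4, Dnajc3, Sdf2l1, Creld2 and Manf), with a median of -0.41 over all 14. Dnajb9, a BiP co-chaperone also known as ERdj4 and a classic Xbp1 target (deposited coordinates 12:44252342-44257109, minus strand), had the lowest adjusted p of all members. It stood at 68.9, 61.8, 85.2, 82.0 and 72.0 CPM in the CAC libraries and at 48.9, 34.9, 33.7, 45.7 and 35.1 CPM in the CAC_F libraries. The groups did not overlap, and the mean fell from 74.0 ± 9.61 to 39.7 ± 7.07 CPM (SD, n = 5 each), a log2 fold change of -0.90 ± 0.11 (SE, adjusted p = 2.35e-05, edgeR). This call held in all 24 alternative analyses.

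Pdia6, a disulfide isomerase, stood at 469, 338, 448, 321 and 297 CPM in CAC and at 231, 236, 313, 232 and 266 CPM in CAC_F. All CAC_F libraries but library 3 lay below every CAC library, and the log2 fold change came to -0.55 ± 0.16 (SE, adjusted p = 0.00786, edgeR). Pdia4, another isomerase, fell by 0.76 on the log2 scale, with CAC_F libraries from 89.1 to 182 CPM and CAC libraries from 144 to 292 CPM. Its groups overlapped, as did those of Dnajc3 (log2 fold change -0.37), the BiP partner Sdf2l1 (-0.76), and the secreted stress proteins Creld2 (-0.70) and Manf (-0.46). Of these, Manf kept its call in 5 of 24 alternatives and Creld2 in 8 of 24.

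The most abundant chaperones were not called. Hspa5 stood at 749, 614, 946, 792 and 851 CPM in CAC_F, all but library 2 inside the range of the CAC libraries, with a log2 fold change of -0.44 ± 0.21 (SE, adjusted p = 0.108, edgeR). Without CAC library 5, the lowest of its group at 661 CPM, the change was -0.57 with an adjusted p of 0.0390. The lectin chaperones Calr and Canx gave -0.02 ± 0.16 and -0.09 ± 0.13 (SE), and Hsp90b1, the ER paralog of Hsp90, gave -0.38 ± 0.20. Per length, these are among the highest members: Calr had a mean of 299 FPKM in CAC and 311 FPKM in CAC_F, and Hspa5 229 and 179 FPKM.

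Of the 8 genes of ER-associated degradation 5 fell (Edem1, Syvn1, Derl3, Edem2, Derl2), with a median of -0.40. Edem1, a lectin that hands misfolded glycoproteins to the degradation machinery, stood at 304, 280, 328, 244 and 195 CPM in CAC and at 182, 144, 185, 180 and 161 CPM in CAC_F. No CAC_F library reached the lowest CAC library, and the log2 fold change came to -0.66 ± 0.13 (SE, adjusted p = 0.000478, edgeR). Syvn1, the ubiquitin ligase Hrd1 of the ER membrane, stood at 150, 166, 222, 148 and 121 CPM in CAC and at 89.1, 67.5, 111, 87.5 and 96.8 CPM in CAC_F. These groups did not overlap either, and the change was -0.84 ± 0.17 (SE, adjusted p = 0.000640, edgeR).

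Derl3, a derlin of the retrotranslocation complex that is rich in secretory cells, stood at 39.2, 35.2, 40.3, 26.1 and 12.8 CPM in CAC and at 9.71, 16.2, 9.99, 7.94 and 13.0 CPM in CAC_F. The overlap came from CAC library 5, which lay among the CAC_F libraries. The log2 fold change of -1.43 ± 0.30 (SE, adjusted p = 0.000928, edgeR) was the lowest among the secretory members. The calls of Syvn1 and Derl3 held in all 24 alternatives. Edem2 fell by 0.54 on the log2 scale without overlap, and Derl2 by 0.25 with overlap. Sel1l, the partner of Hrd1 (-0.25), Herpud1 (-0.20) and Derl1 (0.00) were not called. Of the secretory genes with a matched promoter, 5 of the 9 with an ER stress element and 6 of the 12 without one were among those that fell.

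Among the 4 sensors and factors Ern2 alone was called. Ern2, the Ire1 paralog of mucus-secreting epithelium (7:121769116-121785430 in the deposited coordinates), stood at 130, 83.6, 186, 127 and 146 CPM in CAC and at 83.2, 19.9, 38.9, 70.9 and 59.0 CPM in CAC_F. CAC_F library 1 lay just under CAC library 2, and the other CAC_F libraries lay lower. The level was 0.404 of that in CAC, with a log2 value of -1.31 ± 0.34 (SE, adjusted p = 0.00450, edgeR). With the goblet cell list as a covariate it was 0.04 (adjusted p = 0.906), the only call of this comparison to turn its direction in an alternative.

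Xbp1, whose total transcript was counted and not its spliced form, stood at 466, 291, 374, 287 and 287 CPM in CAC and at 327, 288, 230, 259 and 241 CPM in CAC_F. The groups overlapped through CAC_F libraries 1 and 2, and the change of -0.34 ± 0.14 (SE, adjusted p = 0.0577, edgeR) was not called, though 6 of 24 alternatives called it. Ern1, the Ire1 found in most cells, changed by -0.14 ± 0.17 and Atf6 by -0.01 ± 0.14 (SE), and no alternative called either. Ern1 ranged from 56.1 to 81.8 CPM in CAC and from 49.1 to 70.0 CPM in CAC_F, and Atf6 from 69.1 to 104 and from 63.6 to 109 CPM.

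In the Atf4 branch, Psat1 and Asns, both enzymes of amino acid synthesis, rose under FOLFOX. Psat1, a transaminase of serine synthesis (19:15882042-15924701, minus strand, in the deposited coordinates), stood at 24.0, 32.7, 20.6, 13.3 and 14.2 CPM in CAC and at 59.4, 74.0, 92.0, 70.5 and 92.9 CPM in CAC_F. Every CAC_F library was above every CAC library, and the level was 3.71-fold higher, a log2 fold change of 1.89 ± 0.37 (SE, adjusted p = 0.000534, edgeR). The call was lost in 1 of 24 alternatives, the goblet covariate, where the change was 1.32 (adjusted p = 0.0589).

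Asns, asparagine synthetase and a standard Atf4 target, stood at 65.7, 60.2, 65.9, 38.1 and 45.6 CPM in CAC and at 120, 90.3, 87.0, 92.3 and 99.8 CPM in CAC_F. The groups did not overlap, the change was 0.83 ± 0.21 (SE, adjusted p = 0.00356, edgeR), and the call held in all 24 alternatives. Phgdh, the first enzyme of serine synthesis, was not called at 0.43 ± 0.31 (SE). It ranged from 25.9 to 77.4 CPM in CAC and from 53.7 to 103 CPM in CAC_F.

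The transcription factors of the branch were lower instead. Ddit3, which encodes the stress factor CHOP (10:127126643-127132157, plus strand, in the deposited coordinates), stood at 14.6, 18.5, 30.0, 27.5 and 16.6 CPM in CAC and at 7.10, 7.34, 10.9, 10.5 and 8.78 CPM in CAC_F. The groups did not overlap, and the level was 0.416 of that in CAC, a log2 fold change of -1.26 ± 0.17 (SE, adjusted p = 3.38e-05, edgeR) that held in all 24 alternatives. Atf4 itself, which is controlled largely at translation, stood at 225, 177, 260, 249 and 196 CPM in CAC and at 209, 199, 151, 148 and 143 CPM in CAC_F. CAC_F libraries 1 and 2 lay inside the CAC range and the other libraries below it. The change of -0.38 ± 0.13 (SE, adjusted p = 0.0227, edgeR) kept its call in 12 of 24 alternatives.

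Chac1, which degrades glutathione and is induced through Atf4 and CHOP, ranged from 1.08 to 13.4 CPM in CAC and from 1.79 to 3.07 CPM in CAC_F. The change was -1.34 ± 0.51 (SE, adjusted p = 0.0406, edgeR), and without CAC library 3, the highest at 13.4 CPM, it was -0.79 (adjusted p = 0.216). The call was kept in 5 of 23 alternatives. Trib3, a pseudokinase induced by CHOP, was low throughout, at 1.46 to 3.34 CPM in CAC and 1.37 to 3.63 CPM in CAC_F, and changed by -0.08 ± 0.36 (SE). Eif2ak3 changed by 0.14 ± 0.14 (SE), with 60.1 to 79.0 CPM in CAC and 60.5 to 96.6 CPM in CAC_F.

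Ppp1r15a, which encodes GADD34, the subunit that directs phosphatase to eIF2, rested on few mice. It stood at 17.4, 17.5, 18.0, 20.9 and 15.2 CPM in CAC and at 91.1, 47.2, 15.1, 26.1 and 14.0 CPM in CAC_F. CAC_F libraries 1 and 2 were high and libraries 3 and 5 lay below every CAC library. The log2 fold change of 1.12 ± 0.39 (SE, adjusted p = 0.0261, edgeR) was 0.55 without CAC_F library 1 (adjusted p = 0.210) and 0.07 without both (adjusted p = 0.888).

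**Figure D2:**
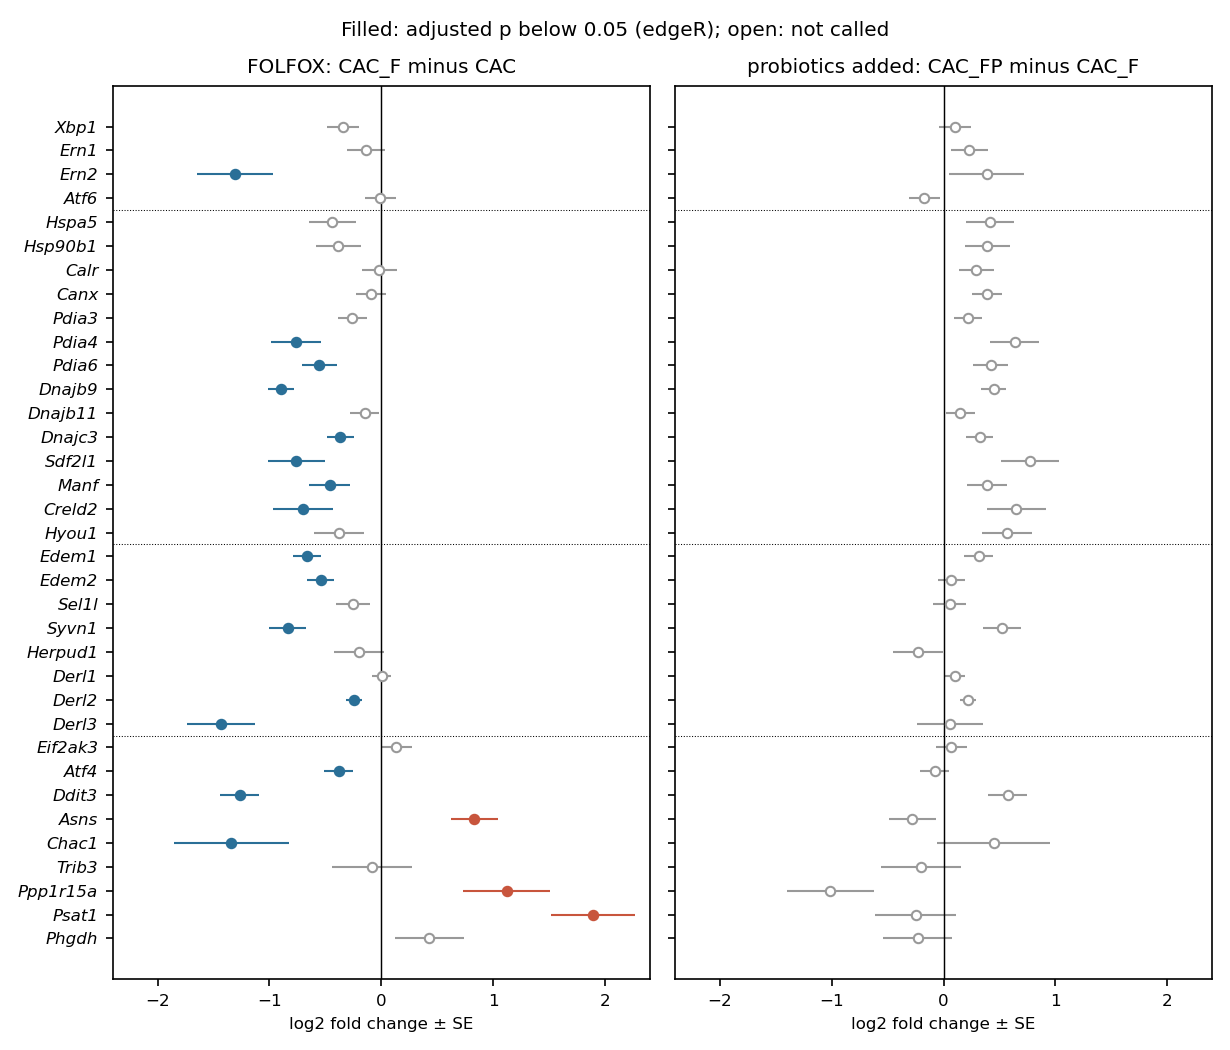
Points are log2 fold changes with their standard errors for the 35 members (rows, by role) in CAC_F minus CAC on the left and CAC_FP minus CAC_F on the right; blue filled points were called lower, red filled points higher, and open points were not called. On the left, Psat1 at 1.89 and Asns at 0.83 stand to the right and Dnajb9, Derl3 and Ddit3 to the left; on the right no point is filled, and 24 of the 26 secretory members are above 0.

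Markers of goblet and plasma cells were called as well, mostly lower. The 6 enteroendocrine markers all had positive values (median 0.74), with 1 called higher. Of the 13 goblet cell markers 7 fell in CAC_F minus CAC and the other 6 were not called, and their summed level ran from 17542 to 53518 CPM in CAC and from 2673 to 22058 CPM in CAC_F, with none at 0 in either group. Of the 10 plasma cell markers tested 4 fell and 2 rose, and the summed level ran from 7414 to 21994 CPM in CAC and from 5510 to 14594 CPM in CAC_F, again with none at 0. The covariate was the mean log2 CPM of a list's markers. For the goblet list it ran from 7.90 to 9.07 in CAC and from 5.33 to 7.75 in CAC_F, without overlap. Calls lost under this covariate therefore cannot show the part of goblet cells. With the goblet list as a covariate, 7.93% of all genes tested were called higher and 5.63% lower. The secretory members called were then 4 in place of 13 and the Atf4 branch members 3 in place of 6. Those 3 were Asns, Ddit3 and Eif2ak3; Eif2ak3, the gene of PERK, was not called without the covariate and stood at 0.57 with it (log2, adjusted p = 0.0107, edgeR), while Psat1, Ppp1r15a, Atf4 and Chac1 lost their calls. With the plasma cell list the secretory count was 6, beside 18.8% of all genes called higher and 18.9% lower. The secretory median was then -0.31 and -0.22, and Dnajb9, Syvn1, Derl3, Ddit3 and Asns remained called under both covariates.

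Other lists moved too. Of the 12 smooth muscle markers 11 fell, from 4016 to 18426 CPM summed in CAC to 2076 to 3587 CPM in CAC_F. With that list as a covariate 16 secretory members were called and the secretory median was -0.67 in place of -0.38. The Atf4 branch then had a median of -0.09 with 3 members called higher and 1 lower. Over all genes tested, 14.9% were called higher and 15.6% lower with this covariate. Of the 8 macrophage and monocyte markers 5 rose (470 to 1030 CPM in CAC and 1078 to 2070 CPM in CAC_F), and of the 5 neutrophil markers tested 3 rose (8.40 to 114 CPM and 280 to 1066 CPM). Of the 6 proliferation genes 5 rose and 1 was not called. The 6 markers of pancreatic acini, a tissue rich in ER chaperones, summed to 10.9 to 53.8 CPM in CAC and 11.3 to 141 CPM in CAC_F, with 1 of them at 0 in each group. The part of goblet, plasma, muscle and myeloid cells in the members' changes was not tested.

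The mean over a branch's members of log2 CPM minus the NC mean shows the order of the groups. For the 14 chaperones and folding enzymes it was -0.43 ± 0.33 in CAC, -0.85 ± 0.18 in CAC_F, -0.42 ± 0.26 in CAC_FP and -0.56 ± 0.22 in CAC_FPL (SD over libraries), with NC at 0 ± 0.27. For the 8 degradation genes it was -0.25 ± 0.29, -0.76 ± 0.07, -0.61 ± 0.10 and -0.63 ± 0.15 in the same order. For the 9 genes of the Atf4 branch it was -0.43 ± 0.37, -0.24 ± 0.14, -0.32 ± 0.26 and -0.48 ± 0.38. By group mean, CAC_F was the lowest for both secretory roles and the highest of the 4 AOM/DSS groups for the Atf4 branch. By median, CAC_FP (-0.266) stood slightly above CAC_F (-0.273) in the Atf4 branch. The CAC_F mean there includes the high Ppp1r15a of libraries 1 and 2 (2.15 and 1.20 above the NC mean). In the Atf4 branch the libraries of all 5 groups overlapped. In both secretory roles the CAC_F libraries lay below those of NC but overlapped with those of CAC, CAC_FP and CAC_FPL. For chaperones CAC library 5 (-0.88) lay below CAC_F library 3 (-0.57). For degradation genes CAC library 5 (-0.69) lay below CAC_F library 1 (-0.65). The Atf4 branch mean joins genes that rose with genes that fell.

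**Figure D3:**
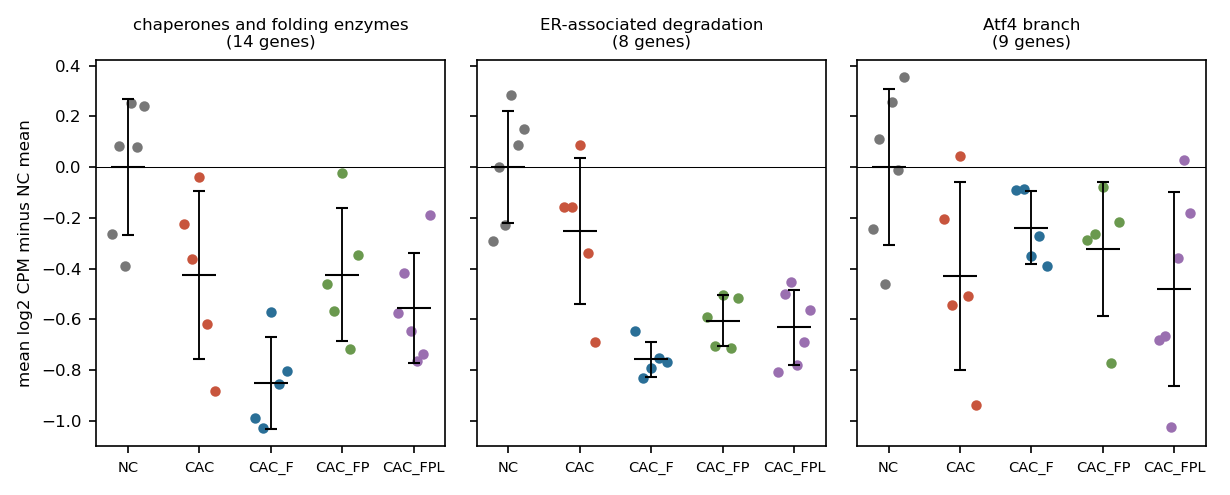
Each point is 1 library, as the mean over the named genes of log2 CPM minus the NC mean, with group means and SD as bars and whiskers. The 5 CAC_F libraries lie between -1.03 and -0.57 for chaperones and folding enzymes and between -0.83 and -0.65 for degradation genes, while in the Atf4 branch they lie between -0.39 and -0.09.

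Lists of neighbouring genes, given beside the 19% of all genes called higher and 20.2% called lower in CAC_F minus CAC, showed how far the pattern reached. Among 23 other Atf4 targets 9 rose and 5 fell. Those that rose included Ddit4, an inhibitor of mTORC1 (log2 fold change 1.44 ± 0.20 SE), the cytokine Gdf15 (2.80 ± 0.54) and Slc7a5, a carrier of large neutral amino acids (1.36 ± 0.26). Those that fell included the mitochondrial enzyme Pck2 (-0.87 ± 0.12), Gpt2 (-1.47 ± 0.23) and Cth, which makes cysteine (-1.90 ± 0.32). Of the 19 cytosolic tRNA synthetases, many of them Atf4 targets, 10 rose and 9 were not called, led by Hars1 (0.72 ± 0.13), Eprs1 (0.52 ± 0.11) and Rars1 (0.68 ± 0.14).

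Among 16 genes of eIF2, its exchange factor, kinases and phosphatase partners, 7 rose and 2 fell. The eIF2 subunit gene Eif2s1 rose by 0.73 ± 0.13 and Eif2b3 and Eif2b2, subunits of the exchange factor, by 0.89 ± 0.16 and 0.53 ± 0.10 (log2, SE). The kinases Eif2ak1, Eif2ak2 and Eif2ak4, which sense heme, viral RNA and uncharged tRNA, were not called; they are named outside the rule for named genes. Of the 8 mitochondrial chaperones and proteases 4 rose, among them Hspa9 (0.60 ± 0.12) and Hspd1 (0.77 ± 0.24).

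On the secretory side most calls were lower. Of 17 other ER chaperones and oxidative folding genes 10 fell, led by Txndc5 (-1.11 ± 0.18), Cnpy2 (-0.71 ± 0.12) and Sil1 (-0.63 ± 0.11), and the goblet cell isomerase Agr2 also fell (-1.52 ± 0.39); Agr2 and Sec61a1 are named here outside the rule for named genes. Of 17 genes of import and signal peptide removal 7 fell, led by Sec62 (-0.45 ± 0.08), while the channel gene Sec61a1 was not called at 0.10 ± 0.13. Of 19 genes of ER to Golgi traffic 6 fell, led by the KDEL receptors Kdelr3 (-1.22 ± 0.22), Kdelr2 (-0.68 ± 0.13) and Kdelr1 (-0.40 ± 0.10), and of 14 oligosaccharyltransferase and glycan trimming genes 4 fell.

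Of 16 other degradation genes 7 fell, led by Os9 (-0.40 ± 0.08) and Rnf5 (-0.69 ± 0.14), and 2 rose, namely Vcp (0.47 ± 0.10) and Nploc4 (0.45 ± 0.10), parts of the cytosolic unfoldase that also serves other pathways. Of 9 other transcription factors and proteases of secretory cells 5 fell and 2 rose: Creb3l1 fell by 1.84 ± 0.28 on the log2 scale, whereas Mbtps2, the second protease that activates Atf6, rose by 0.56 ± 0.11 and Creb3l3 by 3.68 ± 0.74 from a mean of 1.35 CPM. Of 12 cytosolic heat shock genes 5 fell, led by Hspa1a (-2.88 ± 0.76), a value that is uncertain because Hspa1a and Hspa1b are near-identical copies. The goblet and plasma cell values above stand beside these lists as well.

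**Figure D4:**
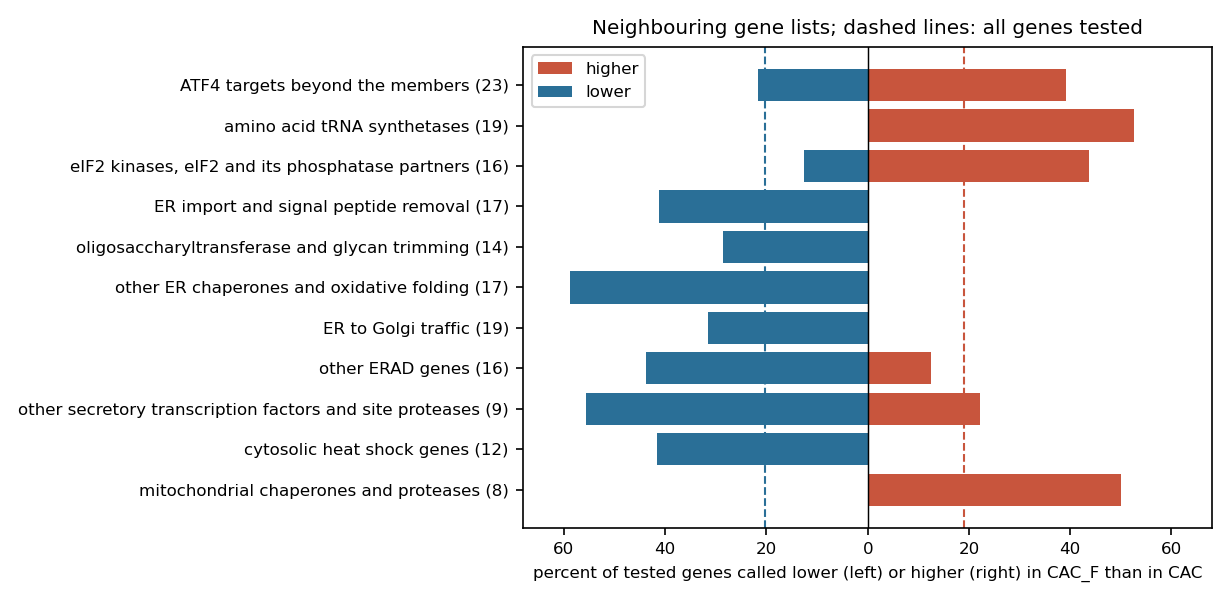
Bars give, for each list of neighbouring genes, the percent of tested genes (number in brackets) called lower (left) or higher (right) in CAC_F minus CAC, with dashed lines at 20.2% and 19%, the shares over all genes tested. The tRNA synthetase bar runs only to the right and the ER chaperone bar only to the left.

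Most secretory members were also lower in the FOLFOX group than in untreated colon. CAC_F minus NC, a comparison added after the values were seen, called 21 of 26 secretory members lower and the other 5 not, beside 22.6% of all genes called higher and 23.7% lower. In the Atf4 branch it called Psat1 and Asns higher and Ddit3, Chac1 and Atf4 lower. Asns (0.50, adjusted p = 0.0438, edgeR) kept this call in 14 of 24 alternatives, and Herpud1, one of the 21 (-0.53, adjusted p = 0.0495), in 8 of 24. The secretory median was -0.69. Hspa5 was lower by 1.07 ± 0.21 (log2 fold change -1.07, SE 0.21, adjusted p = 0.000272, edgeR), with every CAC_F library below the lowest NC library at 1091 CPM. Sdf2l1 (-1.47 ± 0.25), Creld2 (-1.48 ± 0.26) and Derl3 (-1.60 ± 0.30) gave the lowest secretory values. This comparison shares the CAC_F libraries with the one above and joins AOM/DSS, FOLFOX and the segment sampled. With the goblet list as a covariate 6 secretory members and 2 of the Atf4 branch were called, and the secretory median was -0.54. With the plasma cell list 18 secretory members were called lower (median -0.57), and with the smooth muscle list 22 (median -0.85). The 10 goblet markers that fell of 13 had, with the other 3, a summed level of 30988 to 88168 CPM in NC.

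With probiotics added to FOLFOX, most secretory members lay higher, none of them called. CAC_FP minus CAC_F called 0 of 26 secretory and 0 of 9 Atf4 branch members by edgeR, beside 0% of all genes in either direction. At an unadjusted p below 0.05 there were 12 secretory members and 2 of the Atf4 branch, and 2401 of the 15080 genes tested. DESeq2 called 1 secretory member and limma 0, and without CAC_F library 3 edgeR called 2 secretory members and 1 of the Atf4 branch. The log2 fold change was positive for 24 of 26 secretory members, including all 14 chaperones and folding enzymes, with a median of 0.32 against 0.00 over all genes. In the Atf4 branch 3 of 9 were positive, with a median of -0.20.

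The lowest unadjusted p belonged to Dnajb9, at 63.3, 48.5, 49.2, 49.0 and 60.3 CPM in CAC_FP. Its libraries overlapped with CAC_F library 1, and the change was 0.45 ± 0.11 (SE, adjusted p = 0.132, edgeR). Syvn1 had the second lowest among the secretory members, at 121, 114, 173, 117 and 125 CPM, all above the CAC_F libraries, with a change of 0.52 ± 0.17 (SE, adjusted p = 0.165, edgeR). Ddit3 stood at 12.5, 12.7, 14.2, 15.1 and 11.9 CPM in CAC_FP, again without overlap, with a change of 0.57 ± 0.17 (SE, adjusted p = 0.150, edgeR). CAC_FP library 3 was the highest of its group for most chaperones, for example 1510.0 CPM of Hspa5 against 814 to 1080 CPM in the others. Psat1 (-0.25 ± 0.36), Asns (-0.28 ± 0.21) and Ppp1r15a (-1.01 ± 0.39) had negative values, and the Ppp1r15a value rests on the same high CAC_F libraries as above. No marker was called. The summed goblet markers ran from 5601 to 27754 CPM in CAC_FP and the plasma cell markers from 4930 to 8543 CPM. The colonocyte markers ran from 5145 to 9982 CPM, above the 1101 to 4611 CPM of CAC_F without overlap. The part of these cells in the members' values was not tested.

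Loperamide on top of probiotics gave no call. CAC_FPL minus CAC_FP called 0 of 26 and 0 of 9 members by edgeR, beside 0% of all genes higher and 0% lower, and no member had an unadjusted p below 0.05, against 995 of all genes. DESeq2 also called 0 members, and voom with library weights called 1 secretory member. Canx had the lowest unadjusted p, with a change of -0.23 ± 0.13 (SE, adjusted p = 0.751, edgeR). In the Atf4 branch Psat1 had the lowest, at -0.42 ± 0.34 (SE): it ran from 41.9 to 95.4 CPM in CAC_FP and from 17.1 to 83.3 CPM (median 44.5) in CAC_FPL.

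Each combined group was also set against CAC and CAC_F, which shares libraries with the comparisons above. CAC_FP minus CAC called 3 secretory members lower, Derl3 (-1.37 ± 0.30), Dnajb9 (-0.45 ± 0.11) and Edem2 (-0.47 ± 0.12), and of the Atf4 branch Psat1 higher (1.64 ± 0.37) and Ddit3 (-0.69 ± 0.17) and Atf4 (-0.46 ± 0.13) lower (edgeR, SE). Over all genes 9.68% were called higher and 8.9% lower, so the secretory share was near that of all genes. Derl3 ranged from 10.3 to 14.9 CPM in CAC_FP, with CAC library 5 the only CAC library in that range. Psat1 stood at 50.2, 83.5, 95.4, 41.9 and 56.4 CPM in CAC_FP, all above the CAC libraries. Of the 10 plasma cell markers 6 fell, and of the 13 goblet cell markers 4 fell; with either list as a covariate 1 secretory member was called. With the plasma cell list Derl3 stood at -0.33 in place of -1.37 (adjusted p = 0.394, edgeR) and the secretory median at 0.14 in place of -0.06. Hspa5 was close to the CAC mean, at 1054 ± 276 against 1070 ± 338 CPM (SD, n = 5 each).

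CAC_FPL minus CAC called Derl3 (-1.34 ± 0.29), Dnajb9 (-0.50 ± 0.11) and, in the Atf4 branch, Ddit3 (-0.70 ± 0.16) lower, beside 0.882% of all genes called higher and 0.524% lower (edgeR, SE). Dnajb9 ran from 46.3 to 56.8 CPM (median 52.5) in CAC_FPL, below every CAC library. Ddit3 ran from 12.1 to 14.6 CPM (median 13.2), so that its highest CAC_FPL library only just stayed under the lowest CAC library, also at 14.6 CPM. Psat1, at 1.22 ± 0.36, was not called (adjusted p = 0.0711, edgeR). These calls depended on single libraries: leaving out CAC library 3 or 4 or CAC_FPL library 5 left 0 secretory and 0 Atf4 branch calls. Leaving out CAC_FPL library 4 left 1 secretory call, and leaving out CAC_FPL library 1, 4 or 6 left none in the Atf4 branch. Leaving out CAC library 2 gave 3 calls in the Atf4 branch and CAC_FPL library 3 gave 2. With the goblet or plasma cell list, of which 2 markers each fell, as a covariate, 1 secretory member was called.

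CAC_FPL minus CAC_F called Dnajb9 (0.40 ± 0.11, adjusted p = 0.0238) and Ddit3 (0.56 ± 0.17, adjusted p = 0.0308) higher in edgeR's test, beside 7.14% of all genes called higher and 5.05% lower. Ddit3 did not overlap between these groups, while 1 of the 5 CAC_F libraries of Dnajb9 lay inside the CAC_FPL range. Without CAC_F library 2 or 5, or without CAC_FPL library 1 or 2, neither was called. Ddit3 was also not called without CAC_F library 1, without CAC_FPL library 3 or by voom, and kept its call in 13 of 25 alternatives, against 17 of 25 for Dnajb9. Without CAC_F library 3 there were 3 secretory and 2 Atf4 branch calls, without CAC_FPL library 5 there were 2 and 2, and without CAC_FPL library 6 there were 3 secretory calls. Of the goblet markers 2 rose, and with that list as a covariate neither gene was called. Asns, at -0.49 ± 0.20, and Psat1, at -0.67 ± 0.34 (SE), were not called. Among the neighbouring lists, 5 of 17 other ER chaperones and 4 of 19 traffic genes were called higher. Of the 23 other Atf4 targets 5 were called higher and 3 lower, Ddit4 among the latter (-1.04 ± 0.19).

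**Figure D5:**
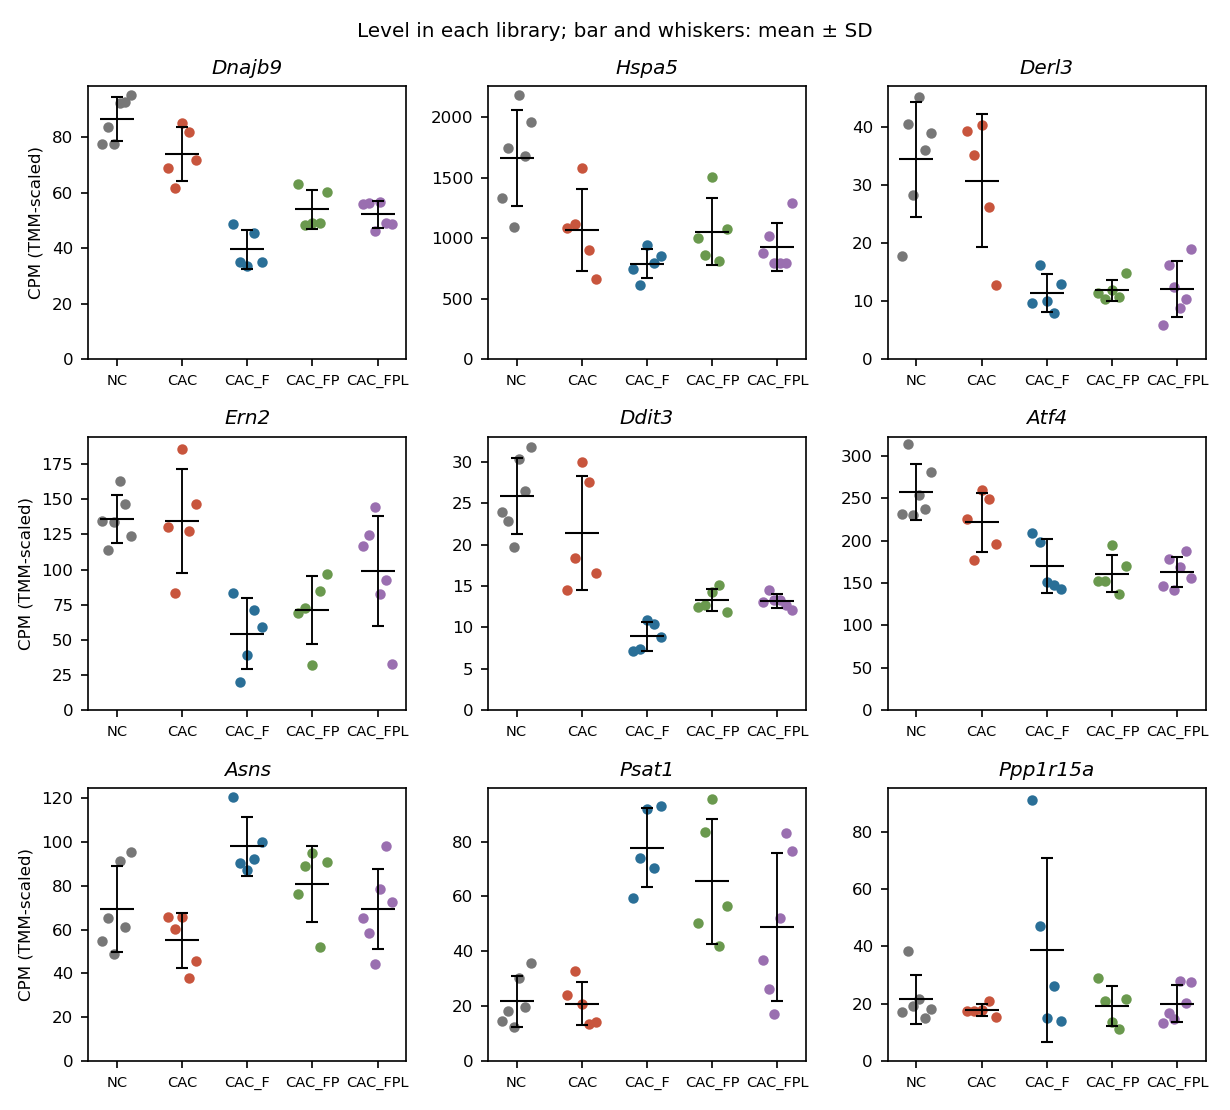
Points are CPM in each library for 9 members, with group mean and SD as bar and whiskers, and every axis starts at 0. Ddit3 is lowest in the 5 CAC_F libraries, Dnajb9 is lowest in 4 of them while CAC_F library 1 lies among the CAC_FP and CAC_FPL libraries, Derl3 is low in all 3 FOLFOX groups, Psat1 is high in CAC_F and spread from 17.1 to 83.3 CPM in CAC_FPL, and the Ppp1r15a mean of CAC_F rests on 2 libraries.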

How the data were processed

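Libraries were made with dUTP marking of the second strand, per the labels' protocols. Reads were handled with cutadapt 1.9, FastQC and HISAT2, per the submitters' processing notes; the counting tool, its strand setting, the annotation, the build and how overlapping or near-identical genes were handled are not stated there or in the labels. The authors deposited raw counts per gene and, beside them, FPKM values, which they scaled to gene length and depth.

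A gene was kept where 5 or more libraries reached an FPKM of 1 (15080 of 39971, holding 99.3% of the counts). Counts were scaled by TMM and fitted over all 5 groups with edgeR 4.0.16 (quasi-likelihood test, R 4.3.3), with Benjamini-Hochberg adjustment over the genes kept and calls at an adjusted p below 0.05. Groups follow the treatment labels. CAC_F minus NC was added after the values were seen. Members and lists were chosen with earlier results of these data known. Named are, in each comparison and branch, the 4 called members of lowest adjusted p per direction (the 2 of lowest unadjusted p where none was called), 9 members that are always described, and up to 3 called genes from each neighbouring list.

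Alternatives were other filters, median-ratio size factors, DESeq2 1.42.0, voom with library weights and limma 3.58.1 on log2(FPKM + 1) or log2(FPKM + 0.1), a fit of only the groups compared, a replicate block, marker lists as covariates, and leaving out libraries. Tested on simulated counts for CAC_F minus CAC (15080 genes), the fit recovered 17.9% of genes changed by 0.5, 68.7% of those changed by 1 and 92.4% of those changed by 2 on the log2 scale, with 6 false among 125 calls. The simulation changed 67, 67 and 66 genes by these sizes, whereas 5902 genes were called in the data. Replicates numbered alike across groups were not treated as pairs.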

Additional observations from a re-analysis of the deposited data

Results flagged for a closer look

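Among 175 combinations of a member and a group, 15 had 1 library far from the others of its group by Dixon's criterion; chance flags about 1 in 20 groups, and members of one library are not independent. All values are CPM. CAC_FP library 3 was high for Canx (662, against 473 to 503 in the others), Pdia4 (283, against 166 to 194), Sdf2l1 (81.9, against 41.1 to 52.2), Creld2 (129, against 63.8 to 79.7) and Syvn1 (173, against 114 to 125). CAC_FPL library 6 was high for Hsp90b1 (1461, against 748 to 944), Calr (1341, against 929 to 1045), Canx (577, against 381 to 449) and Derl1 (133, against 108 to 117), and low for Eif2ak3 (48.5, against 76.7 to 82.1). In CAC_F, library 3 was high for Hsp90b1 (1158, against 677 to 807), library 1 for Edem2 (62.3, against 51.5 to 54.5) and library 2 for Trib3 (3.63, against 1.37 to 1.94), while library 2 was low for Manf (80.2, against 96.9 to 99.3). In untreated colon, NC library 2 was high for Ppp1r15a (38.3, against 14.9 to 21.6).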

How the results depend on the processing

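Counts are called members by edgeR unless a tool is named, secretory branches first and Atf4 branch second; the cause of each shift was not tested. CAC minus NC gave 0 and 0 in every alternative run. For CAC_F minus CAC (13 and 6), the secretory count was 8 with no filter, 8 with limma on either FPKM scale, 4 with the goblet covariate, 6 with the plasma cell covariate and 7 without CAC_F 1 and 2; the Atf4 count was 3 with only the groups compared, with the goblet covariate and with limma on either scale; leaving out 1 library gave 8 to 15 and 4 to 6. With the replicate block the counts were 12 and 4; libraries of the same number correlated at 0.0163 to 0.258, and 3 of 5 correlated best with their own number. For CAC_FP minus CAC_F (0 and 0), DESeq2 gave 1 secretory call, and leaving out 1 library gave 0 to 2 and 0 to 1. For CAC_FPL minus CAC_FP (0 and 0), voom gave 1 secretory call, and leaving out 1 library gave 0 and 0. For CAC_FP minus CAC (3 and 3), the secretory count was 7 with voom and 1 with the goblet or plasma cell covariate, and the Atf4 count 1 with the smooth muscle or goblet covariate; leaving out 1 library gave 3 to 4 and 2 to 4. For CAC_FPL minus CAC (2 and 1), the secretory count was 0 with only the groups compared and 1 with no filter or any of the 3 covariates; the Atf4 count was 0 with no filter, only the groups compared or the goblet covariate, 2 with a mean FPKM of at least 5 or voom, and 3 with DESeq2 or without CAC 2 and CAC_FPL 3; leaving out 1 library gave 0 to 2 and 0 to 3. For CAC_FPL minus CAC_F (1 and 1), the secretory count was 0 with no filter, only the groups compared, the goblet covariate or without CAC_F 1 and 2, 2 with a mean FPKM of at least 5, the replicate block or the plasma cell covariate, 3 with DESeq2, 4 with the smooth muscle covariate and 5 with voom; the Atf4 count was 0 with no filter, only the groups compared, the goblet covariate or without either pair of libraries; leaving out 1 library gave 0 to 3 and 0 to 2. For CAC_F minus NC (21 and 5), the goblet covariate gave 6 and 2, and leaving out 1 library gave 20 to 21 and 4 to 6. Under the goblet covariate the direction turned for Ern2 in CAC_F minus CAC (0.0431) and CAC_F minus NC (0.68) and for Herpud1 in CAC_F minus NC (0.35), none of them called there. The simulation recovered 17.9% of genes changed by 0.5 on the log2 scale. It held far fewer changed genes than the 5902 called in CAC_F minus CAC, so that share cannot be carried over to the data. In CAC_F minus CAC, Derl2 (-0.25) and Dnajc3 (-0.37) were called, while Hspa5 (-0.44) was not.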
